A study of Mus musculus with 2 samples.

Results

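The vascular endothelial growth factor (VEGF) system was followed in 9 genes, 4 that encode ligands (Vegfa, Vegfb, Vegfc and Pgf) and 5 that encode receptors or coreceptors (Kdr, Flt1, Flt4, Nrp1 and Nrp2). The genes were chosen by name, as senders and receivers of VEGF signals, and all 9 were found among the 21745 genes listed for both libraries. Their mRNA was counted by Drop-seq, in which droplets label RNA by cell (a barcode) and by molecule (a unique molecular identifier, UMI), in cells of the mouse heart. Both groups were wild-type male C57BL6/J mice operated on at 8 to 10 weeks of age, with no transgene or other agent named in the labels. In the infarction group (MI) the left anterior descending coronary artery was tied off, and in the sham group the suture was placed and not tightened. The MI library came from 1 heart 14 days after surgery and the sham library from 4 hearts of the same day, pooled. Each group was thus 1 library, no difference between them has a replicate check, and no p-value was computed. Intervals are at the 95% level and hold counting error alone, and log2 ratios are of MI over sham.

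VEGF ligands are secreted dimers that bind receptor tyrosine kinases, mainly on endothelial cells. VEGF-A, encoded by Vegfa, drives vessel growth and permeability through VEGFR2, the product of Kdr. VEGFR1, the product of Flt1, binds VEGF-A, VEGF-B and placental growth factor (Pgf) tightly but signals weakly, and a soluble form of it traps ligand. VEGF-C, encoded by Vegfc, acts on VEGFR3, the product of Flt4, which is best known from lymphatic vessels. The neuropilins Nrp1 and Nrp2 are coreceptors for VEGF and for class III semaphorins and are also made outside the endothelium. On GRCm38 (GENCODE vM21) the genes lie at chr17:46016993-46032369 (Vegfa), chr19:6982473-6987651 (Vegfb), chr8:54077606-54187096 (Vegfc), chr12:85166635-85177790 (Pgf), chr5:75932827-75978458 (Kdr), chr5:147561604-147726011 (Flt1), chr11:49609263-49652739 (Flt4), chr8:128358604-128503363 (Nrp1) and chr1:62703285-62818695 (Nrp2). The counts are per gene and do not separate the membrane from the soluble form of Flt1, or the splice forms of Vegfa.

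The 250 bases before the annotated starts are shown for the receptor genes Kdr and Flt1 and for the ligand genes Pgf and Vegfa, whose levels in endothelial cells and in fibroblasts the next paragraphs describe. All 9 genes matched the RefSeq promoter table (build GRCm38.p6), and each sequence is written 5′ to 3′ in the direction of its gene. The windows are chr5:75978456-75978705, minus strand, for Kdr, chr5:147726012-147726261, minus strand, for Flt1, chr12:85177314-85177563, minus strand, for Pgf and chr17:46032378-46032627, minus strand, for Vegfa; the table lists a second start for each of Pgf and Vegfa that is not shown. Capitals mark 2 motifs searched on both strands, the core of the hypoxia response element (ACGTG or GCGTG) and the GC box (GGGCGG).
Kdr: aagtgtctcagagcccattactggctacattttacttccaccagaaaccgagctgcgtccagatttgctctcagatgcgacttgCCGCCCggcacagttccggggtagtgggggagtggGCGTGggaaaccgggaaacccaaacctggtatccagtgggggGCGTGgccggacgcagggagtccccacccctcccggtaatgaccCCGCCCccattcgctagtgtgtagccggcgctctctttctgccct
Flt1: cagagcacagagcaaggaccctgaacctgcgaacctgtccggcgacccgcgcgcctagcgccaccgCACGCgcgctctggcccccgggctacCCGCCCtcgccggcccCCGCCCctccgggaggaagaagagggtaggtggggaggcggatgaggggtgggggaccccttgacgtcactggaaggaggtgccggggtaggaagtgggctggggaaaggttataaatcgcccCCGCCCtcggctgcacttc
Pgf: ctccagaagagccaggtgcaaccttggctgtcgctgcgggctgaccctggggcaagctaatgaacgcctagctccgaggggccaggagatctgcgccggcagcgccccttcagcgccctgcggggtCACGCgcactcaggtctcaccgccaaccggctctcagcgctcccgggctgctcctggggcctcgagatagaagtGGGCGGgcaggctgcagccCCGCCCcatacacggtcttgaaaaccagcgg
Vegfa: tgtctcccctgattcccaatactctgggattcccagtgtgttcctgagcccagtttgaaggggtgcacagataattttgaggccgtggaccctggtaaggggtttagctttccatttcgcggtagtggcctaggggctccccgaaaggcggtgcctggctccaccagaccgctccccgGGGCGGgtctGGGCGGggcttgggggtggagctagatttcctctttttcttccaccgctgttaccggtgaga
The Kdr window held 2 hypoxia cores and 2 GC boxes, the Flt1 window 1 and 3, the Pgf window 1 and 2, and the Vegfa window 0 and 2, with no match overlapping another. The windows at the other starts, not shown, held 0 and 0 for Pgf and 2 and 1 for Vegfa. Of 32851 windows of this length in the table, 38.6% held a hypoxia core and 32.7% a GC box, so these letters are common and their presence or absence here is a description only.

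The MI data held 8555 barcodes and 33275336 UMIs and the sham data 6337 barcodes and 11307405 UMIs, and 5 barcodes occurred in both. Cells were assigned to a class by the number of its marker genes detected (12, or 11 for myeloid and 10 for B cells), and none of the 9 VEGF genes was a marker. Of the kept cells, 7625 of 8294 in MI and 5521 of 5971 in sham entered a class. The classes used were fibroblast (2903 MI and 1748 sham cells), myeloid, meaning macrophages and monocytes (3852 and 1443), endothelial (472 and 2087), mural, meaning smooth muscle cells and pericytes (81 and 93), and mesothelial, the covering layer of the heart (117 and 81). Summed marker levels matched these names in both libraries, with endothelial markers at 6628 CPM (counts per 1000000 UMIs of the class) in MI and 6301 CPM in sham endothelial-gated cells. Cells of 1 class fell mostly into different clusters by library: the largest endothelial cluster held 20 MI and 1916 sham cells, that of sham fibroblasts 6 MI and 1855 sham cells and that of MI myeloid cells 2286 MI and 8 sham cells. The mesothelial and mural names were less secure. All 117 MI cells gated as mesothelial lay in fibroblast clusters when cells were clustered without the VEGF genes, whereas 77 of 81 sham cells lay in a mesothelial cluster. In sham mural-gated cells the endothelial markers stood at 2167 CPM, against 371 CPM in MI mural-gated cells, and 97.5% of MI but 17.2% of sham mural-gated cells carried smooth muscle genes. Of mural-gated cells 27 of 81 in MI and 1 of 93 in sham lay in fibroblast clusters. MI cells were deeper in most classes, with median UMIs per cell of 5359 against 1521.5 in fibroblasts and 3474 against 1384 in endothelial cells. Levels are therefore given in CPM, and shares of cells with a VEGF gene after thinning each cell to 500 UMIs. Shares of cells with a sub-gate marker were not thinned. Lymphocytes (T, NK and B cells, 180 in MI and 54 in sham, with median depths of 1265.5 and 1312 UMIs) served as the background of RNA that is free in the cell suspension.

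Across the 5 classes the VEGF genes were lower in MI more often than higher, with Kdr in endothelial cells and Pgf in fibroblasts among the lower ones. A gene entered a count in a class with at least 20 UMIs over both libraries, and was counted as higher or lower at a 2-fold difference in CPM. Of 35 such pairs of gene and class, 7 were higher and 16 lower in MI. Over all genes, too, more pairs were lower (7910) than higher (6120). Flt4 in fibroblasts and Pgf in myeloid cells, among the 7, had intervals that hold 0. Kdr and Flt1 in fibroblasts and myeloid cells, among the 16, stood near the share of endothelial reference genes in sham, as described below. In endothelial cells 1 of 9 was higher and 5 lower, against 11.4% and 14.4% of all genes, and the median log2 ratio was -1.08 against -0.04 over all genes. In fibroblasts 1 of 9 was higher and 4 lower, against 13.2% and 20.5% of all genes, with a median of -0.87 against -0.22. In myeloid cells 2 of 7 were higher and 2 lower, against 9.10% and 12.1%, with a median of -0.06 against -0.12. In mural cells 1 of 5 was higher and 3 lower, against 16.6% and 20.6%, and in mesothelial cells 2 of 5 were higher and 2 lower, against 15.9% and 13.8%. The plot of levels shows every value, and the plot of ratios shows the 35 pairs.

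**Figure D1:**
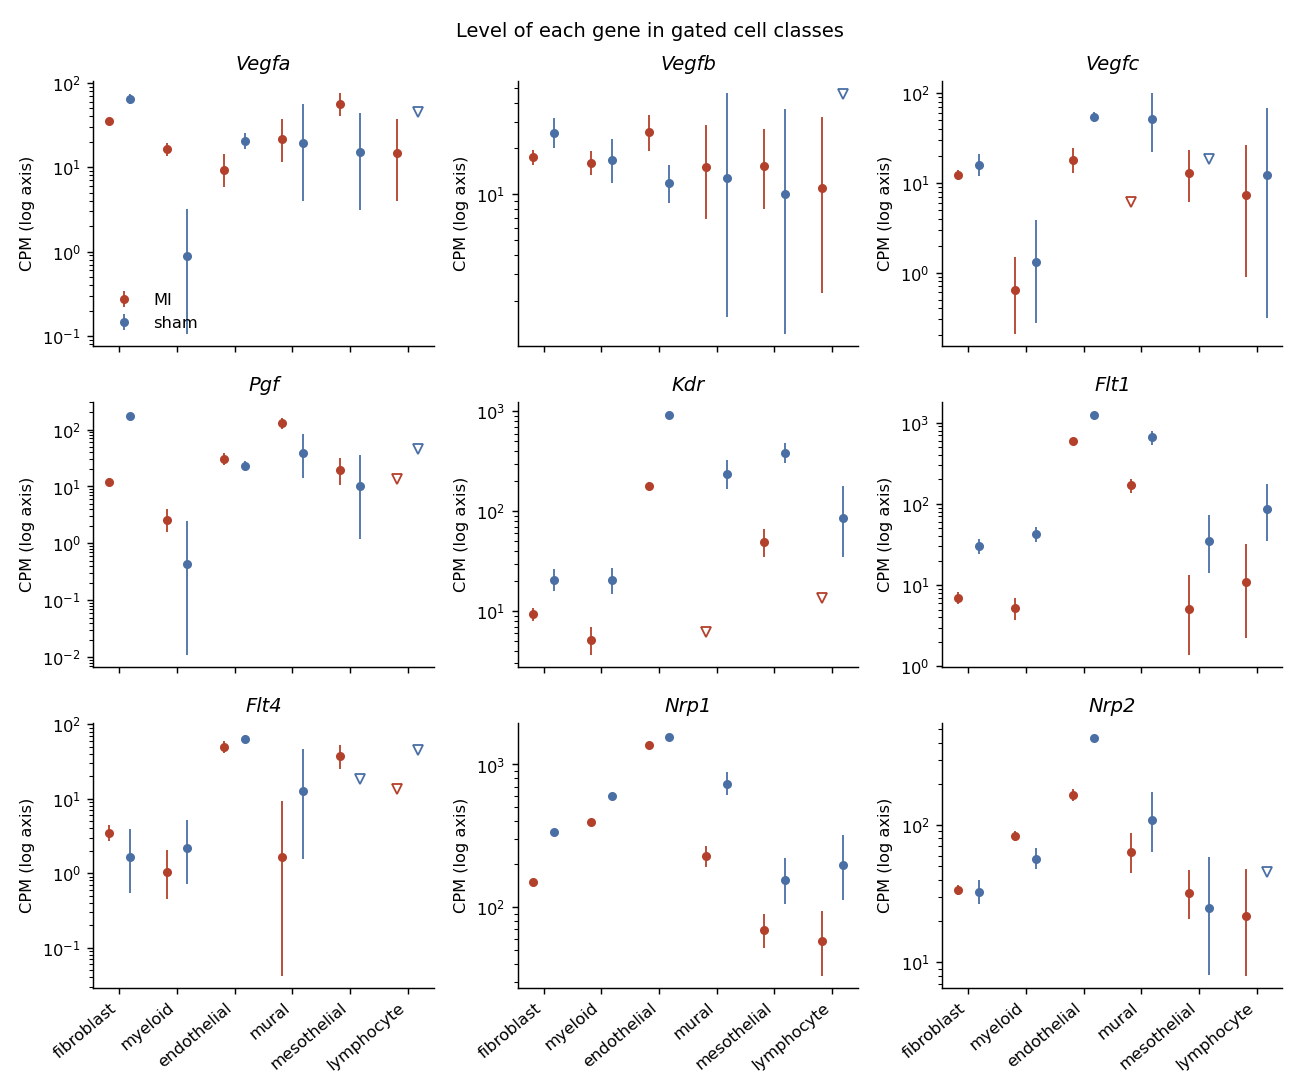
Level of each VEGF gene (CPM, log axis) in 6 gated classes of the MI (red) and sham (blue) libraries, with exact Poisson 95% intervals for counting error; an open triangle marks the upper limit where no UMI was counted. Kdr, Flt1, Flt4, Nrp1 and Nrp2 are highest in endothelial cells in both libraries (for Flt4 in MI the mesothelial interval overlaps), and Pgf of fibroblasts differs most between the libraries among the fibroblast panels.

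**Figure D2:**
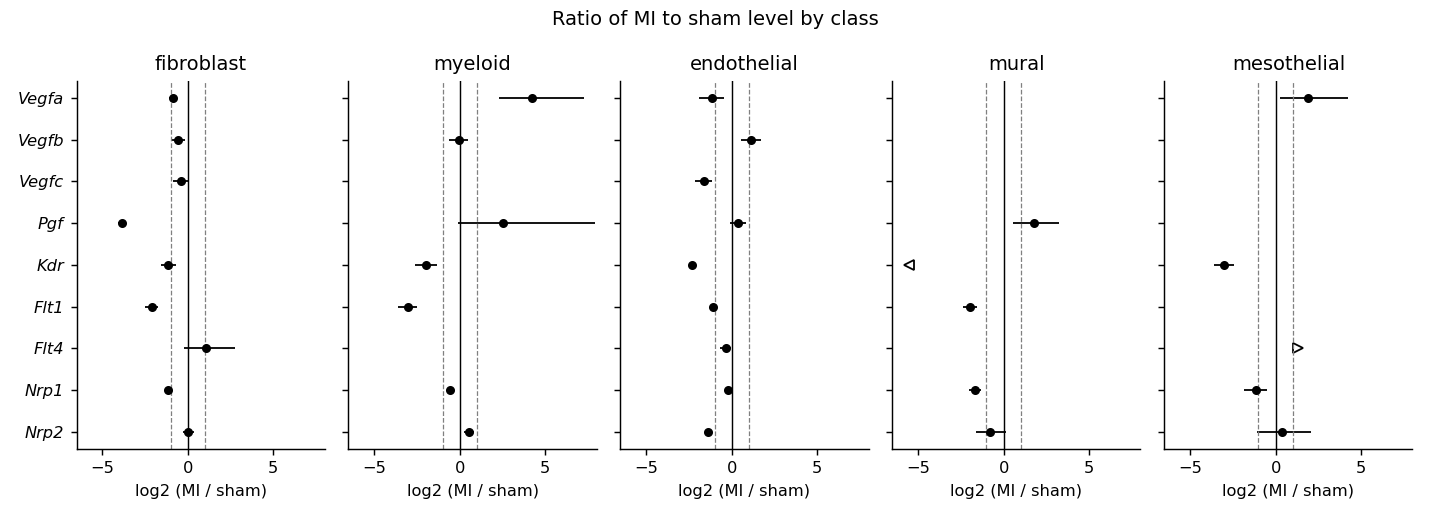
Log2 ratio of MI over sham (horizontal axis) for each gene and class with at least 20 UMIs, with exact 95% counting intervals; dashed lines mark a 2-fold difference and open triangles are bounds set by a count of 0. In endothelial cells Kdr lies at -2.34, Flt1 at -1.08 and Nrp1 at -0.20.

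The receptor Kdr stood lower in MI endothelial cells than in sham endothelial cells, and Flt1 less so. Kdr was at 179.7 CPM (163 to 198, 402 UMIs) in MI and 910.2 CPM (881 to 940.0, 3701 UMIs) in sham, 5.07-fold lower for a log2 ratio of -2.34 (-2.49 to -2.19). Flt1 was at 588 CPM (556 to 620.4, 1315 UMIs) and 1241 CPM (1207 to 1276, 5047 UMIs) for a log2 ratio of -1.08 (-1.17 to -0.99). The intervals of the libraries did not overlap for either gene, and the ratio for Kdr lay below that for Flt1, so that 30.6 Kdr UMIs were counted per 100 Flt1 UMIs in MI and 73.3 in sham. Kdr levels in MI, in CPM from high to low, were endothelial (179.7), mesothelial (48.7), fibroblast (9.34), myeloid (5.15), lymphocyte (0), mural (0). Kdr intervals of neighbours in the MI order overlapped except for endothelial over mesothelial, mesothelial over fibroblast and fibroblast over myeloid. Kdr levels in sham, in CPM from high to low, were endothelial (910.2), mesothelial (386), mural (236), lymphocyte (85.98), fibroblast (20.7), myeloid (20.3). Kdr intervals of neighbours in the sham order overlapped except for endothelial over mesothelial and lymphocyte over fibroblast. Flt4, the VEGF-C receptor, was at 49.6 CPM (40.8 to 59.7, 111 UMIs) and 63.4 CPM (55.9 to 71.7, 258 UMIs) for a log2 ratio of -0.35 (-0.69 to -0.03), under the 2-fold limit. After thinning, a Kdr UMI was found in 8.05% (5.76 to 10.9) of MI and 36.1% (34.02 to 38.2) of sham endothelial cells, or 36.2% and 66.1% before thinning. In lymphocytes the thinned share was 0 of 180 cells in MI, which allows up to 1.67%, and 1.85% of 54 in sham. A Flt1 UMI was found in 23.1% (19.4 to 27.2) and 43.3% (41.2 to 45.5) after thinning (72.03% and 74.1% before), with 0% and 3.704% in lymphocytes. Flt1 levels in MI, in CPM from high to low, were endothelial (588), mural (169), lymphocyte (10.9), fibroblast (6.94), myeloid (5.15), mesothelial (5.13). Flt1 intervals of neighbours in the MI order overlapped except for endothelial over mural and mural over lymphocyte. Flt1 levels in sham, in CPM from high to low, were endothelial (1241), mural (658), lymphocyte (85.98), myeloid (42.01), mesothelial (35.1), fibroblast (30.1). Flt1 intervals of neighbours in the sham order overlapped except for endothelial over mural and mural over lymphocyte. The 12 endothelial markers of the gate were not lower in MI endothelial cells, at a sum of 6628 CPM against 6301 CPM in sham. Some other endothelial genes were lower in the same MI cells: a reference of Gpihbp1 and Tcf15 (also capillary markers), Sox18 and Cyyr1 summed to 643 CPM in MI and 1933 CPM in sham, with Sox18 at 61.7 and 169 CPM and Cyyr1 at 92.1 and 349 CPM. Fibroblast RNA was higher in them, at 6.36% of the fibroblast level in MI and 1.47% in sham for 5 fibroblast genes outside the gate, and the part of either in the differences was not tested.

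The endothelial cells of the libraries were not the same mixture. Among them, 70.8% in sham but 8.90% in MI carried capillary markers, and 37.1% in MI but 7.14% in sham carried endocardial markers, those of the inner lining of the chambers. The other sub-gates were arterial (24.6% in MI and 13.1% in sham), venous or activated (16.7% and 2.06%) and lymphatic (9.53% and 4.84%). Kdr was lower in MI within the arterial sub-gate, at 351 CPM (interval 307 to 399) against 820.4 CPM (interval 758 to 886) for a log2 ratio of -1.23 (-1.45 to -1.01). Within the endocardial sub-gate it was at 24.4 CPM (interval 15.9 to 35.8) against 186 CPM (interval 144 to 236) for a log2 ratio of -2.93 (-3.64 to -2.25). These are the sub-gates with at least 50 cells in each library, and the difference in Kdr was present in both. With a minimum of 30 cells, chosen after seeing the data, Kdr was also lower in the capillary sub-gate (42 MI cells), with a log2 ratio of -1.22 (-1.71 to -0.77), and in the lymphatic sub-gate (45 MI cells), with -1.67 (-2.24 to -1.13). In the venous or activated sub-gate (43 sham cells) the ratio was 0.21 (-0.50 to 0.98), an interval that holds 0. These sub-gates held different cells in each library. Of arterial-gated cells 35.3% of MI and 8.06% of sham carried Gja4, and 57.8% of MI and 19.05% of sham Fbln5. The arterial markers Gja5, Bmx, Dkk2 and Sox17 were also carried by a larger share of MI than of sham cells. Stmn2 went the other way, at 49.1% of MI and 73.99% of sham cells, as did Hey1, at 17.2% and 26.01%. Mecom was close, at 59.5% of MI and 60.8% of sham cells. Of venous or activated cells, also before thinning, 91.1% of MI and 32.6% of sham carried Plvap, and 12.7% of MI and 79.1% of sham Vcam1. Ratios within a sub-gate and a difference in cell kind therefore cannot be told apart. Flt1 was lower in MI in all 5 sub-gates, with log2 ratios of -0.94 (-1.10 to -0.79) in arterial, -0.80 (-1.01 to -0.60) in endocardial, -0.97 (-1.39 to -0.59) in capillary, -1.34 (-1.81 to -0.89) in lymphatic and -1.51 (-1.82 to -1.20) in venous or activated cells. Flt4 was highest in the lymphatic sub-gate of both libraries, at 268 CPM (interval 197 to 356) in MI and 373 CPM (interval 303 to 454) in sham, intervals that overlap. Flt4 levels in MI, in CPM from high to low, were endothelial (49.6), mesothelial (37.2), fibroblast (3.498), mural (1.67), myeloid (1.03), lymphocyte (0). Flt4 intervals of neighbours in the MI order overlapped except for mesothelial over fibroblast. Flt4 levels in sham, in CPM from high to low, were endothelial (63.4), mural (12.8), myeloid (2.21), fibroblast (1.67), lymphocyte (0), mesothelial (0). Flt4 intervals of neighbours in the sham order overlapped except for endothelial over mural. Left out of both libraries, the endocardial sub-gate moved the endothelial Kdr ratio from -2.34 to -1.61 and that of Flt1 to -0.95, under 2-fold, an alternative chosen after seeing the data.

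**Figure D3:**
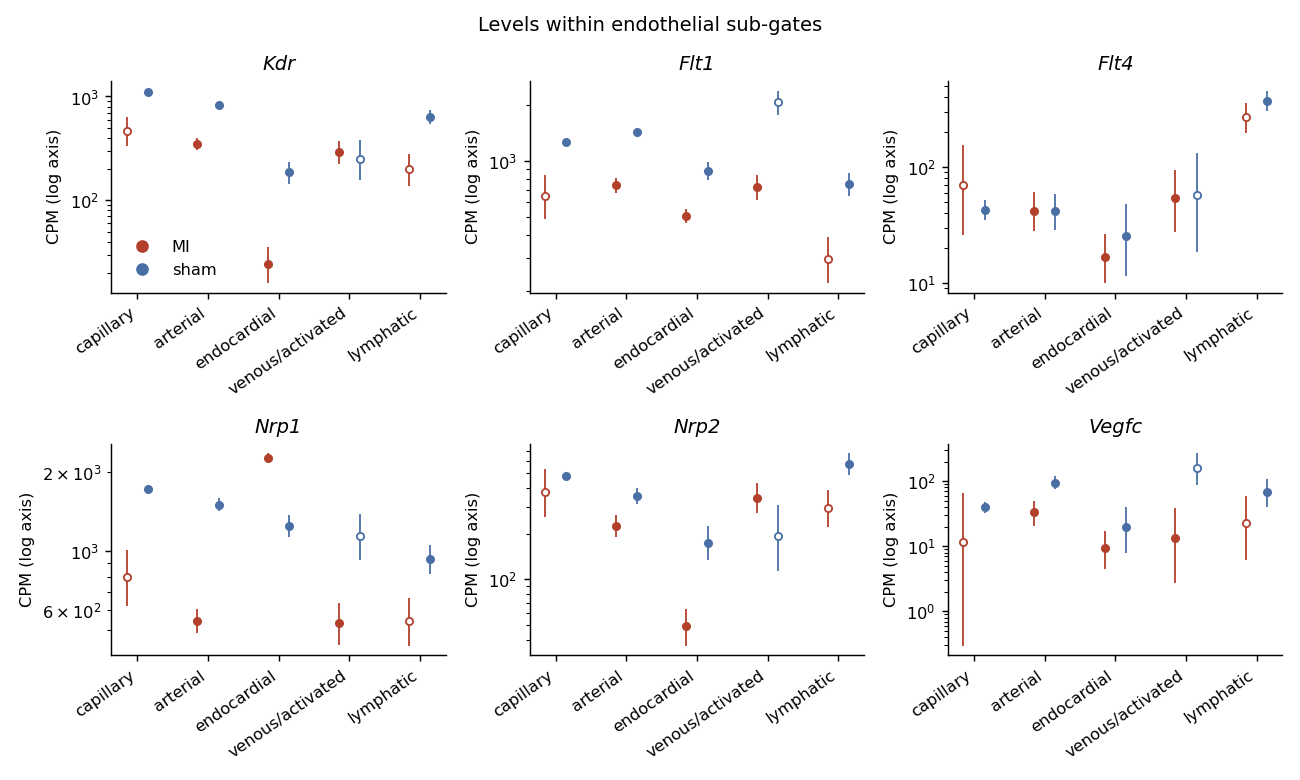
Levels of 6 VEGF genes (CPM, log axis) in 5 endothelial sub-gates of the MI (red) and sham (blue) libraries, with exact Poisson 95% intervals; open points have under 50 cells. Kdr is lower in MI in 4 of the 5 sub-gates, while Nrp1 is higher in MI in the endocardial sub-gate and lower in the other 4.

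The coreceptor Nrp1 differed little between the libraries over all endothelial cells but went in opposite directions within them. Over all endothelial cells it was at 1368 CPM (1319.7 to 1417, 3060 UMIs) in MI and 1567 CPM (1529 to 1606, 6371 UMIs) in sham for a log2 ratio of -0.20 (-0.26 to -0.13). In the endocardial sub-gate it was higher in MI, at 2256 CPM (interval 2167 to 2348) against 1244 CPM (interval 1130.4 to 1365) for a log2 ratio of 0.86 (0.71 to 1.01). In the arterial sub-gate it was lower, at 545 CPM (interval 490.2 to 604) against 1501 CPM (interval 1417 to 1589) for a log2 ratio of -1.46 (-1.64 to -1.29). With the endocardial sub-gate left out of both libraries the endothelial ratio of Nrp1 was -1.51. The endocardial-gated cells themselves differed between the libraries: before thinning, the endocardial marker Npr3 was detected in 92.6% of them in MI and 83.9% in sham, and Cytl1 in 15.4% and 81.2%. As levels both were lower in MI, Npr3 at 1326 against 2726 CPM and Cytl1 at 47.9 against 1182 CPM. Cgnl1, at 742 against 1370 CPM, and Hapln1, at 0 against 45.0 CPM, were lower too. The endocardial marker Tmem108 went the other way, at 326 against 149 CPM and in 76.6% of MI and 26.8% of sham cells. The endocardial-gated cells also carried more RNA of 12 cardiomyocyte genes in MI, 602 against 73.2 CPM, and of the fibroblast reference, 4415 against 2521 CPM, whose part in the Nrp1 difference was not tested. Nrp2, which pairs with VEGFR3 in lymphatic vessels and veins, was at 167 CPM (151 to 185, 374 UMIs) in MI and 433 CPM (413 to 453, 1759 UMIs) in sham endothelial cells for a log2 ratio of -1.37 (-1.54 to -1.21). Nrp2 was under 2-fold as a mean of CPM per cell (-0.84) and without the endocardial sub-gate (-0.74). It was lower in MI in endocardial cells, with a log2 ratio of -1.84 (-2.40 to -1.28), and less so in arterial cells, with -0.65 (-0.95 to -0.36). In the venous or activated sub-gate it was 344 CPM in MI and 193 CPM in sham for a log2 ratio of 0.83 (0.06 to 1.68) with 43 sham cells. The cells of that sub-gate differed between the libraries, as given above for Plvap and Vcam1. Nrp2 levels in MI, in CPM from high to low, were endothelial (167), myeloid (83.2), mural (63.6), fibroblast (33.7), mesothelial (32.1), lymphocyte (21.9). Nrp2 intervals of neighbours in the MI order overlapped except for endothelial over myeloid and mural over fibroblast. Nrp2 levels in sham, in CPM from high to low, were endothelial (433), mural (109), myeloid (57.05), fibroblast (32.7), mesothelial (25.1), lymphocyte (0). Nrp2 intervals of neighbours in the sham order overlapped except for endothelial over mural and myeloid over fibroblast.

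Myeloid cells and fibroblasts were the other large holders of neuropilin mRNA, although Nrp2 in fibroblasts was not separable from lymphocytes. In myeloid cells Nrp1 was at 398 CPM (385 to 413, 3092 UMIs) in MI and 599.7 CPM (568 to 632, 1356 UMIs) in sham for a log2 ratio of -0.59 (-0.68 to -0.50), and Nrp2 at 83.2 CPM (76.95 to 89.9, 646 UMIs) and 57.05 CPM (47.6 to 67.8, 129 UMIs), a ratio of 0.55 (0.27 to 0.83). The neuropilins thus lay on opposite sides of 0 in these cells, both under 2-fold. Lymphocytes gave 58.3 CPM (33.3 to 94.7, 16 UMIs) and 197 CPM (112 to 319, 16 UMIs) for Nrp1, below the myeloid intervals in both libraries. Among myeloid sub-gates, Nrp1 was at 699.5 CPM (interval 579 to 838) in MI and 681 CPM (interval 640.0 to 723) in sham resident macrophages for a log2 ratio of 0.04 (-0.25 to 0.32). In MI it was at 476 CPM (interval 456 to 498) in the lipid-associated macrophages (Spp1, Gpnmb and Trem2 among their markers), which made up 51.3% of MI and 1.11% of sham myeloid cells, and at 179.9 CPM (interval 145 to 220.4) in monocytes. Resident macrophages made up 2.73% of MI and 68.9% of sham myeloid cells, so the class ratio compares different mixtures. In fibroblasts Nrp1 was at 149.8 CPM (144 to 156, 2742 UMIs) in MI and 335 CPM (315 to 356, 1003 UMIs) in sham for a log2 ratio of -1.16 (-1.27 to -1.05), and Nrp2 at 33.7 CPM (31.1 to 36.4, 616 UMIs) and 32.7 CPM (26.6 to 39.9, 98 UMIs), a ratio of 0.04 (-0.27 to 0.36). Lymphocytes gave 21.9 CPM (8.03 to 47.6, 6 UMIs) for Nrp2 in MI and 0 UMIs in sham, with an upper limit of 45.3 CPM. The fibroblast levels of Nrp2 lie within what the lymphocytes allow in both libraries, and the myeloid intervals lie above it. Median-of-ratios scaling brought the fibroblast ratio of Nrp1 to -0.93, under 2-fold. In the homeostatic fibroblast sub-gate (96 MI and 1645 sham cells, which differ as described for Pgf) the Nrp1 ratio was -0.79 (-1.12 to -0.48), and within MI Nrp1 was at 146 CPM in contractile and 144 CPM in cycling fibroblasts. Over the classes, Nrp1 followed the order endothelial, myeloid, mural, fibroblast, mesothelial in MI, with the mesothelial and lymphocyte intervals overlapping. In sham the order was endothelial, mural, myeloid, fibroblast, lymphocyte, mesothelial; the mural and myeloid intervals overlapped, and so did each neighbouring pair from fibroblasts down.

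Kdr and Flt1 in sham fibroblasts and myeloid cells stood near the share given by 4 endothelial reference genes, which were chosen after seeing the data. In MI fibroblasts Kdr stood above that reference, a result that depends on the genes in it. In sham, Kdr in fibroblasts was 2.27% and in myeloid cells 2.23% of its endothelial level, and the 4 endothelial reference genes were at 2.44% and 2.74%. Flt1 was at 2.42% and 3.38% there, the same scale. In MI fibroblasts Kdr was at 5.201% of its endothelial level, Flt1 at 1.18% and the reference at 0.782%, and Kdr UMIs per 100 Flt1 UMIs were 135 in fibroblasts against 30.6 in endothelial cells. Ptprb, left out of the reference because MI fibroblasts held it, was at 63.4 CPM in MI fibroblasts and 734 CPM in MI endothelial cells. Of the genes kept, Cyyr1 was at 3.11 and 92.1 CPM. Kdr in MI fibroblasts was 9.34 CPM (7.997 to 10.9, 171 UMIs); it was 21.2 CPM (interval 15.96 to 27.6) in the fibroblasts outside every sub-gate, 8.36 CPM (interval 6.74 to 10.2) in contractile and 3.399 CPM (interval 1.86 to 5.703) in cycling ones. MI lymphocytes had 0 Kdr UMIs, with an upper limit of 13.4 CPM, so the level over all MI fibroblasts lies within what the lymphocytes allow. The lower levels of Kdr and Flt1 in MI fibroblasts and myeloid cells (log2 ratios of -1.15 and -2.11 in fibroblasts, -1.98 and -3.03 in myeloid cells) came with an endothelial reference that was also lower in those MI cells, and its part in them was not tested. The Kdr ratio in fibroblasts was under 2-fold in 5 of 9 alternatives for class, cells and scaling, down to -0.32 after thinning. Flt4 was at 3.498 CPM (2.69 to 4.47, 64 UMIs) in MI and 1.67 CPM (0.542 to 3.896, 5 UMIs) in sham fibroblasts for a log2 ratio of 1.07 (-0.23 to 2.74) whose interval holds 0. Nrp1 stood apart from the reference in fibroblasts, at 10.96% of its endothelial level in MI and 21.4% in sham, and in myeloid cells, at 29.1% and 38.3%.

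**Figure D4:**
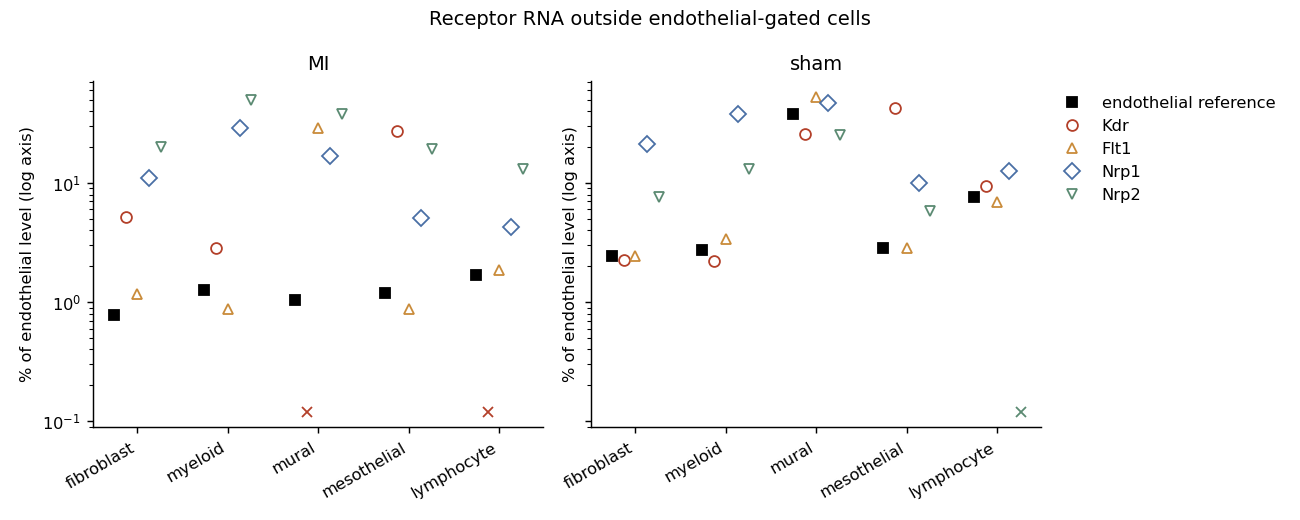
Level of 4 receptor genes outside endothelial cells, as a percentage of their level in endothelial cells of the same library (log axis), beside 4 endothelial reference genes (black squares); a cross at the bottom marks a gene with no UMI. Nrp1 and Nrp2 lie above the squares in fibroblasts and myeloid cells of both libraries, and also in MI lymphocytes. Kdr lies far above the squares in mesothelial-gated cells.

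Mesothelial-gated cells carried Kdr with little Flt1. Kdr was at 386 CPM (305 to 483, 77 UMIs) in sham and 48.7 CPM (34.5 to 66.9, 38 UMIs) in MI mesothelial-gated cells for a log2 ratio of -2.99 (-3.59 to -2.41), and Flt1 was at 35.1 CPM (14.1 to 72.3, 7 UMIs) and 5.13 CPM (1.398 to 13.1, 4 UMIs). This was 1100 Kdr UMIs per 100 Flt1 UMIs in sham and 950 in MI, against 73.3 and 30.6 in endothelial cells, and the endothelial reference genes were at 2.85% and 1.196% of their endothelial level. A Kdr UMI was found in 22.2% (13.7 to 32.8) of sham and 2.56% (0.532 to 7.31) of MI mesothelial-gated cells after thinning (54.3% and 20.5% before). Flt4 was at 37.2 CPM (24.9 to 53.4, 29 UMIs) in MI and at 0 UMIs in sham, a bound of 2.47-fold higher against a floor of 3 counts over the sham class. The interval of its log2 ratio began at 0.91, under 2-fold. As a log2 ratio the bound was 0.74 without barcodes ending in N and -0.12 after thinning, both under 2-fold, with sham at 0 UMIs in each. Vegfa was at 56.4 CPM (41.0 to 75.7, 44 UMIs) in MI and 15.05 CPM (3.103 to 43.98, 3 UMIs) in sham for a log2 ratio of 1.91 (0.27 to 4.24), and Nrp1 at 69.2 CPM (52.02 to 90.4, 54 UMIs) and 156 CPM (106 to 221, 31 UMIs), a ratio of -1.17 (-1.83 to -0.48), or -0.99 as a mean of CPM per cell and 0.054 after thinning. Since the MI cells of this gate clustered with fibroblasts and carried the fibroblast reference at 40.8% of the fibroblast level (21.8% in sham), the values describe different cells in each library, and these ratios and the change of cell kind cannot be told apart.

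Pgf, the placental growth factor gene, stood far lower in MI than in sham fibroblasts. Pgf was at 12.2 CPM (10.6 to 13.9, 223 UMIs) in MI and 171 CPM (157 to 187, 513 UMIs) in sham fibroblasts, 14.1-fold lower for a log2 ratio of -3.81 (-4.05 to -3.58). A Pgf UMI was found in 0.551% (0.315 to 0.893) of MI and 8.295% (7.04 to 9.69) of sham fibroblasts after thinning (5.098% and 20.3% before), and in 0 of 180 MI and 0 of 54 sham lymphocytes, which allow up to 1.67% and 5.56%. In the homeostatic sub-gate Pgf was at 8.81 CPM (interval 2.40 to 22.6) in MI (4 UMIs) and 172 CPM (interval 157 to 188) in sham for a log2 ratio of -4.29 (-6.17 to -2.92). The homeostatic-gated cells were not alike: 5 of 96 in MI and 1643 of 1645 in sham lay in the cluster that held most of them in sham, and the marker Clec3b was at 214 and 1333 CPM, so this ratio and a difference in cell kind cannot be told apart. In fibroblasts outside every sub-gate Pgf was 6.55 against 159 CPM, a ratio of -4.60 (-5.63 to -3.58), and contractile and cycling MI fibroblasts were at 13.1 and 13.6 CPM. Pgf was thus lower in each of these 4 groups of MI fibroblasts than in either sham group. Pgf levels in MI, in CPM from high to low, were mural (129), endothelial (30.4), mesothelial (19.2), fibroblast (12.2), myeloid (2.58), lymphocyte (0). Pgf intervals of neighbours in the MI order overlapped except for mural over endothelial and fibroblast over myeloid. Pgf levels in sham, in CPM from high to low, were fibroblast (171), mural (38.3), endothelial (23.1), mesothelial (10.03), myeloid (0.442), lymphocyte (0). Pgf intervals of neighbours in the sham order overlapped except for fibroblast over mural. In endothelial cells Pgf did not follow this pattern, at 30.4 CPM (23.6 to 38.5, 68 UMIs) in MI and 23.1 CPM (18.7 to 28.3, 94 UMIs) in sham for a log2 ratio of 0.39 (-0.08 to 0.86) whose interval holds 0. The endothelial ratio moved with the processing, to 1.33 as a mean of CPM per cell, 1.41 after thinning and 1.23 without the endocardial sub-gate, and it was -0.40 without the capillary one. In mural cells Pgf was at 129 CPM (102 to 161, 77 UMIs) in MI and 38.3 CPM (14.1 to 83.5, 6 UMIs) in sham for a log2 ratio of 1.75 (0.56 to 3.24), with all of these UMIs in the smooth muscle sub-gate. Within that sub-gate Pgf was at 129 CPM (102 to 162, 77 UMIs) in 79 MI cells and 165 CPM (60.5 to 359, 6 UMIs) in 16 sham cells, a log2 ratio of -0.35, so its direction turned; this alternative was chosen after seeing the data. The mural ratio was 0.92 by clusters and 0.20 after thinning, both under 2-fold. In myeloid cells it was at 2.58 CPM (1.57 to 3.98, 20 UMIs) and 0.442 CPM (0.0112 to 2.46, 1 UMI), with an interval of the ratio that holds 0, and MI lymphocytes allow up to 13.4 CPM.

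Most Vegfa UMIs of gated cells came from fibroblasts in both libraries, and its level there was lower in MI by less than 2-fold, or past 2-fold after thinning (log2 ratio -1.34). It was at 35.2 CPM (32.6 to 38.1, 645 UMIs) in MI and 64.4 CPM (55.7 to 74.2, 193 UMIs) in sham fibroblasts for a log2 ratio of -0.87 (-1.10 to -0.63). The MI lymphocyte interval, 3.97 to 37.3 CPM from 4 UMIs, overlaps that of MI fibroblasts. Sham lymphocytes had 0 Vegfa UMIs, with an upper limit of 45.3 CPM, below the sham fibroblast interval. Fibroblasts held 61.1% of all gated UMIs in MI and 30.6% in sham. Within MI fibroblasts Vegfa was nearly even, at 36.5 CPM in contractile, 32.3 in cycling, 41.8 in homeostatic and 33.5 in the remaining cells. The homeostatic sub-gate alone gave a ratio of -0.65 (-1.41 to 0.03), whose interval holds 0. In endothelial cells Vegfa was at 9.39 CPM (5.81 to 14.3, 21 UMIs) in MI and 20.7 CPM (16.5 to 25.6, 84 UMIs) in sham for a log2 ratio of -1.14 (-1.90 to -0.43), with 5 of the 21 MI UMIs in 1 cell. That ratio was under 2-fold by clusters (-0.90), with doublets kept (-0.97), as a mean of CPM per cell (-0.61) and without the endocardial sub-gate (-0.74). In myeloid cells the direction was the opposite, at 16.4 CPM (13.6 to 19.5, 127 UMIs) in MI and 0.884 CPM (0.107 to 3.19, 2 UMIs) in sham for a log2 ratio of 4.21 (2.33 to 7.27). A Vegfa UMI was found in 0.831% (0.569 to 1.17) of MI and 0.0693% (0.00175 to 0.386) of sham myeloid cells after thinning (2.62% and 0.139% before). MI lymphocytes were at 14.6 CPM (3.97 to 37.3, 4 UMIs), with a thinned share of 0.556% (0.0141 to 3.06), so the MI myeloid level was not separable from that of lymphocytes at this depth. Vegfa in MI myeloid cells was 46.4% of its fibroblast level while the 5 fibroblast reference genes were at 4.75% of theirs. The same 2 shares in MI lymphocytes were 41.4% (4 UMIs) and 5.37%, so this contrast does not set myeloid cells apart from lymphocytes. Among MI myeloid sub-gates it was at 29.6 CPM (interval 9.62 to 69.2) in resident macrophages (5 UMIs), 23.2 CPM (interval 11.99 to 40.5) in monocytes, 19.2 CPM (interval 15.3 to 23.8) in lipid-associated and 9.23 CPM (interval 4.22 to 17.5) in cycling macrophages. The resident, monocyte and lipid-associated intervals overlap. Sham resident macrophages had 0 Vegfa UMIs, with an upper limit of 2.40 CPM. Vegfa levels in MI, in CPM from high to low, were mesothelial (56.4), fibroblast (35.2), mural (21.7), myeloid (16.4), lymphocyte (14.6), endothelial (9.39). Vegfa intervals of neighbours in the MI order overlapped except for mesothelial over fibroblast. Vegfa levels in sham, in CPM from high to low, were fibroblast (64.4), endothelial (20.7), mural (19.2), mesothelial (15.05), myeloid (0.884), lymphocyte (0). Vegfa intervals of neighbours in the sham order overlapped except for fibroblast over endothelial.

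The remaining ligands, Vegfb and Vegfc, were at low counts. Vegfb, a ligand of VEGFR1, was at 25.5 CPM (19.3 to 33.01, 57 UMIs) in MI and 11.8 CPM (8.704 to 15.7, 48 UMIs) in sham endothelial cells, 2.16-fold higher for a log2 ratio of 1.11 (0.53 to 1.69). The ratio was under 2-fold without the endocardial sub-gate (0.60) and as a mean of CPM per cell (0.86). Most of the MI UMIs lay in the endocardial sub-gate, 36 of 57, where it was at 33.8 CPM (interval 23.7 to 46.8) against 11.3 CPM (interval 3.07 to 28.8) in sham. In fibroblasts Vegfb was lower in MI, at 17.4 CPM (15.6 to 19.5, 319 UMIs) against 25.4 CPM (19.99 to 31.8, 76 UMIs), a ratio of -0.54 (-0.91 to -0.16), and in myeloid cells the ratio was -0.06 (-0.60 to 0.50). Vegfb levels in MI, in CPM from high to low, were endothelial (25.5), fibroblast (17.4), myeloid (16.1), mesothelial (15.4), mural (15.1), lymphocyte (10.9). Vegfb intervals of all neighbours in the MI order overlapped. Vegfb levels in sham, in CPM from high to low, were fibroblast (25.4), myeloid (16.8), mural (12.8), endothelial (11.8), mesothelial (10.03), lymphocyte (0). Vegfb intervals of all neighbours in the sham order overlapped. Vegfb levels thus formed no step between neighbouring classes in either library. Vegfc was at 17.9 CPM (12.8 to 24.3, 40 UMIs) in MI and 54.6 CPM (47.6 to 62.3, 222 UMIs) in sham endothelial cells for a log2 ratio of -1.61 (-2.13 to -1.12). Among sham sub-gates of at least 50 cells it was highest in arterial cells, at 95.2 CPM (interval 74.9 to 119), and arterial cells of MI were at 33.1 CPM (interval 20.8 to 50.1), a ratio of -1.52 (-2.28 to -0.82). In fibroblasts Vegfc was at 12.2 CPM (10.7 to 13.95, 224 UMIs) and 16.03 CPM (11.8 to 21.3, 48 UMIs), a ratio of -0.39 (-0.84 to 0.09) whose interval holds 0. Myeloid cells had 5 Vegfc UMIs in MI and 3 in sham. Vegfc levels in MI, in CPM from high to low, were endothelial (17.9), mesothelial (12.8), fibroblast (12.2), lymphocyte (7.29), myeloid (0.644), mural (0). Vegfc intervals of all neighbours in the MI order overlapped. Vegfc levels in sham, in CPM from high to low, were endothelial (54.6), mural (51.1), fibroblast (16.03), lymphocyte (12.3), myeloid (1.33), mesothelial (0). Vegfc intervals of neighbours in the sham order overlapped except for mural over fibroblast.

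The classes that held the VEGF transcripts differed between the libraries, as did the shares of the classes in all UMIs. Endothelial cells held 7.47% of all gated UMIs in MI and 41.6% in sham, and fibroblasts 61.1% and 30.6%. Kdr UMIs from endothelial cells were 61.8% (57.9 to 65.5) of the total in MI and 94.2% (93.4 to 94.9) in sham, and Flt1 UMIs 82.7% (80.7 to 84.5) and 94.3% (93.7 to 94.9). Nrp1 was split in MI between myeloid cells (33.97%), endothelial cells (33.6%) and fibroblasts (30.1%), and in sham 71.6% was endothelial. Nrp2 was 21.9% endothelial in MI and 87.6% in sham. Vegfc was 78.7% (73.5 to 83.4) endothelial in sham and 79.7% (74.5 to 84.3) fibroblast in MI, while its level in fibroblasts had a ratio whose interval holds 0. Vegfa was 75.3% fibroblast in MI and 67.7% in sham, and its endothelial part was 2.45% and 29.5%. Pgf was 55.3% fibroblast in MI, with 19.1% from the 81 mural cells, and 83.3% in sham. These shares depend on how many cells of each class entered a library.

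**Figure D5:**
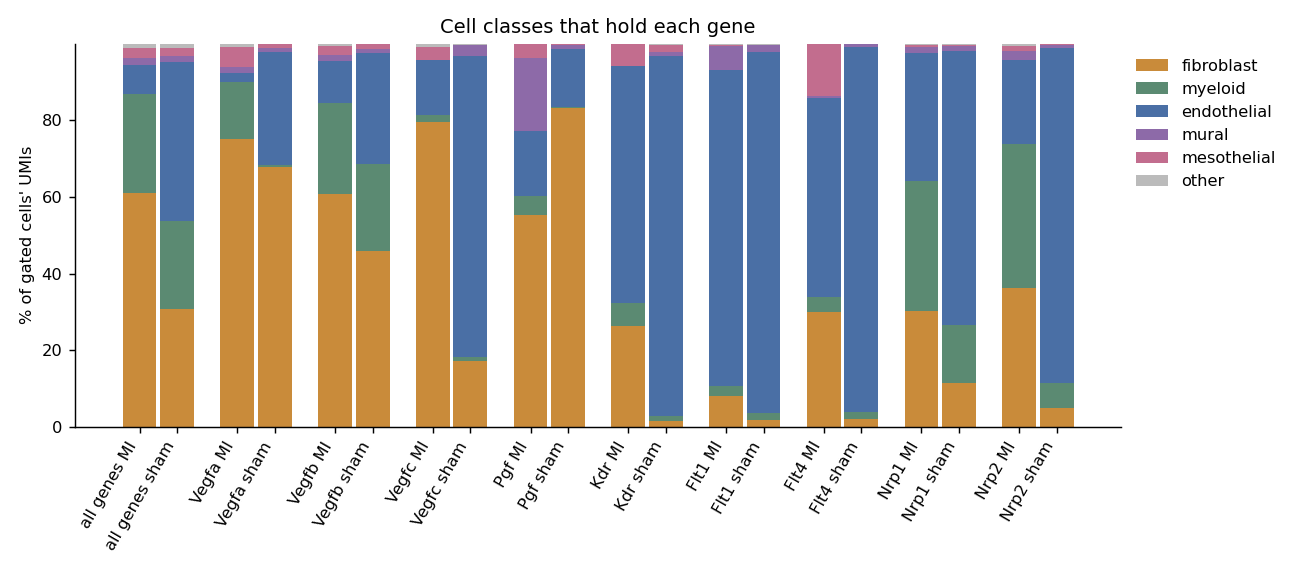
Share of the UMIs of all gated cells (vertical axis, percent) held by each class, for all genes and for each VEGF gene, in the MI and sham libraries. The endothelial part of Vegfc is 78.7% in sham and 14.2% in MI, and that of all genes 41.6% and 7.47%.

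Mural-gated cells gave receptor values that differ in what they hold. Flt1 was at 169 CPM (138 to 205, 101 UMIs) in MI and 658 CPM (537 to 798, 103 UMIs) in sham for a log2 ratio of -1.96 (-2.37 to -1.55), and Nrp1 at 229 CPM (192 to 271, 137 UMIs) and 735 CPM (607 to 882, 115 UMIs), a ratio of -1.68 (-2.05 to -1.31). In the smooth muscle sub-gate alone the ratio of Flt1 was -1.96 and that of Nrp1 -0.84, under 2-fold. Kdr was at 0 UMIs in MI and 236 CPM (166 to 326, 37 UMIs) in sham, a bound of 47.1-fold lower against a floor of 3 counts over the MI class. The interval of its log2 ratio reached up to -5.19, a smaller difference than that bound. After thinning the bound was a log2 ratio of -1.92. In sham mural-gated cells the endothelial reference stood at 37.7% of its endothelial level, near the 25.98% of Kdr and the 53.04% of Flt1, whereas in MI it stood at 1.04% with Flt1 at 28.7%. Flt1 in MI mural-gated cells was thus far above the share of the endothelial reference, with Kdr at 0, and 20 of its 101 UMIs lay in 1 cell. Of the MI mural-gated cells 27 of 81 lay in fibroblast clusters, against 1 of 93 in sham. The fibroblast reference was at 26.2% of its fibroblast level in MI and 5.76% in sham mural-gated cells, and its part in the mural values was not tested. Nrp2 was at 63.6 CPM (44.98 to 87.2, 38 UMIs) and 109 CPM (63.3 to 174, 17 UMIs), intervals that overlap.

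Receptor genes were seen together in a smaller share of MI than of sham endothelial cells. After thinning, 36.9% of MI and 14.6% of sham endothelial cells had no UMI of any of the 5 receptor genes, and 16.3% and 48.4% had at least 2 of them. Kdr with Flt1 was found in 2.97% of MI and 16.7% of sham cells. Each gene by itself was also found in a smaller share of MI cells, Kdr in 8.05% against 36.1% and Flt1 in 23.1% against 43.3%. No joint share expected from these was computed, and the mixtures of sub-gates differed, so the lower joint shares are not a separate result. Among cells with a Kdr UMI, Nrp1 was found in 28.9% of 38 in MI and 51.5% of 753 in sham. Among cells without one, Nrp1 was found in 39.6% and 50.4%. Any neuropilin was found in 20.2% of MI and 25.6% of sham myeloid cells, against 5.56% and 5.56% of lymphocytes. Any of the 4 ligands was found in 3.07% of MI and 13.04% of sham fibroblasts, against 2.22% and 0% of lymphocytes. The MI fibroblast share was thus close to that of MI lymphocytes. By gene, the MI and sham fibroblast shares were 0.551% and 8.295% for Pgf and 1.27% and 3.09% for Vegfa. They were 0.723% and 1.32% for Vegfb and 0.517% and 1.03% for Vegfc. At 500 UMIs per cell an absent UMI does not show an absent transcript.

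Other genes of the pathway were taken from 5 lists, and a list is described by its counts and its median. Of all genes with at least 20 UMIs, 11.4% were at least 2-fold higher and 14.4% lower in endothelial cells, 13.2% and 20.5% in fibroblasts, and 9.10% and 12.1% in myeloid cells. The median of all genes was -0.04 in endothelial cells, -0.22 in fibroblasts and -0.12 in myeloid cells. Genes that process or bind VEGF ligands were higher in MI most often in myeloid cells, 9 of 14 higher and 1 lower, with a median of 1.38. In endothelial cells they were 5 of 14 higher and 0 lower, with a median of 0.70, and in fibroblasts 6 of 17 higher and 2 lower, with 0.16. Fibroblast RNA was also higher in the MI cells outside the fibroblast gate. The fibroblast reference was at 4.75% of its fibroblast level in MI and 1.09% in sham myeloid cells, and at 6.36% and 1.47% in endothelial cells. Its part in the counts of this list and in the genes named next was not tested. Thbs1, which encodes the matrix protein thrombospondin-1 that can bind VEGF, was at 357 CPM in MI and 6.64 in sham, for a log2 ratio of 5.75 (5.20 to 6.36) in endothelial cells, and at 1026 CPM in MI and 105 in sham, for a log2 ratio of 3.29 (3.13 to 3.45) in fibroblasts. Mmp14, a membrane-bound metalloproteinase, was at 276 CPM in MI and 11.5 in sham, for a log2 ratio of 4.58 (4.03 to 5.20) in myeloid cells. The hypoxia and glycolysis genes were 5 of 19 higher and 4 lower in endothelial cells (median 0.01), 5 of 20 higher and 5 lower in fibroblasts (-0.08) and 3 of 19 higher and 1 lower in myeloid cells (0.64). The oxygen-regulated transcription factors lay on opposite sides in fibroblasts, with Hif1a at 147 CPM in MI and 31.7 in sham, for a log2 ratio of 2.22 (1.92 to 2.53) and Epas1 at 11.4 CPM in MI and 46.1 in sham, for a log2 ratio of -2.02 (-2.34 to -1.70). In endothelial cells Hif1a was at 210.1 CPM in MI and 57.8 in sham, for a log2 ratio of 1.86 (1.63 to 2.09) and Epas1 at 119 CPM in MI and 307 in sham, for a log2 ratio of -1.37 (-1.56 to -1.18). Adm, which encodes the vessel-widening peptide adrenomedullin, was at 8.31 CPM in MI and 118 in sham, for a log2 ratio of -3.83 (-4.11 to -3.55) in fibroblasts.

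Genes that carry the signal inside the cell from VEGF receptors were 2 of 31 higher and 4 lower in endothelial cells (median -0.24), 3 of 32 higher and 4 lower in fibroblasts (-0.15) and 1 of 30 higher and 5 lower in myeloid cells (-0.32). The shares of all genes given above for each class, 11.4% higher and 14.4% lower in endothelial cells, apply to these counts and those below. Among them, Hspb1, a small heat shock protein, was at 152 CPM in MI and 642 in sham, for a log2 ratio of -2.08 (-2.25 to -1.91) in endothelial cells. Src, which encodes a membrane-bound kinase, was higher in MI, at 9.39 CPM in MI and 0.738 in sham, for a log2 ratio of 3.67 (1.93 to 6.06). Genes that VEGF is known to induce in endothelium were 6 of 16 higher and 2 lower in endothelial cells (median 0.21), 5 of 13 higher and 5 lower in fibroblasts (-0.21) and 3 of 11 higher and 1 lower in myeloid cells (0.44). Esm1, which encodes endocan and marks the tips of growing vessels, was at 45.1 CPM in MI and 5.41 in sham, for a log2 ratio of 3.06 (2.38 to 3.80) in endothelial cells. Vwf, the von Willebrand factor gene and one of the venous or activated markers, was at 579 CPM in MI and 122 in sham, for a log2 ratio of 2.25 (2.10 to 2.40), and Sele, which encodes the adhesion molecule E-selectin, at 29.1 CPM in MI and 2.21 in sham, for a log2 ratio of 3.71 (2.70 to 4.91). Semaphorins and plexins, the partners of neuropilins in guidance of axons and vessels, were 0 of 8 higher and 0 lower in endothelial cells (median -0.03), 5 of 12 higher and 1 lower in fibroblasts (-0.13) and 0 of 4 higher and 2 lower in myeloid cells (-0.61). Sema3c, a secreted semaphorin that binds neuropilins, was at 5.19 CPM in MI and 174 in sham, for a log2 ratio of -5.07 (-5.40 to -4.75) in fibroblasts. Plxnd1, a plexin of endothelial cells, was at 127 CPM in MI and 216 in sham, for a log2 ratio of -0.76 (-0.96 to -0.57).

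The genes whose levels over 12 profiles of class and library lay closest to each member are given as a description, by Pearson's r of log2(CPM + 10) among 11147 genes; the profiles of a library share its depth and free RNA. For Kdr they were Aqp1 (r = 0.97), Unc45b (r = 0.97), Rapgef3 (r = 0.97), and for Flt1 Fabp4 (r = 0.98), Pcdh12 (r = 0.96), Apold1 (r = 0.96). Aqp1, a water channel, and Fabp4, a fatty acid carrier, are both known from heart capillaries. For Flt4 they were Stap2 (r = 0.94), Lmo1 (r = 0.94), Stmn2 (r = 0.94), of which Stmn2 was an arterial marker here, and for Nrp2 Pparg (r = 0.96), Ubald2 (r = 0.94), Cav2 (r = 0.93). For Nrp1 they were Slc35a4 (r = 0.96), Arhgap31 (r = 0.94), Map3k3 (r = 0.94), and for Pgf Tril (r = 0.95), Nid1 (r = 0.93), Dennd2a (r = 0.91). For Vegfa they were Itih5 (r = 0.86), Igdcc4 (r = 0.84), Adamts15 (r = 0.84), the least close among the 9 genes, for Vegfb Spg20 (r = 0.93), Slc35b4 (r = 0.93), Camkk2 (r = 0.92) and for Vegfc Shroom4 (r = 0.93), Dnm3 (r = 0.92), Zfp146 (r = 0.92).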

How the data were processed

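Each library (MI from 1 heart, sham from 4 pooled) came as 1 table of whole-number UMI counts, genes by barcodes, deposited by the authors without normalization, per the file headers and values. The build mm10 and the program Seurat are named, per the submitters' processing notes, without a role; which aligner, counter and annotation were used is not stated. No barcode had under 500 genes, so the tables were filtered before deposit. The labels describe fixed, embedded tissue and do not say how cells were brought into suspension. Gene coordinates in the promoter windows come from RefSeq on GRCm38.p6, the same assembly as mm10.

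Cells of 200 genes or more and no more than 25% mitochondrial UMIs were kept (114 MI and 34 sham barcodes removed), and scrublet doublets were removed per library (147 in MI, 1.74%, and 332 in sham, 5.27%). A cell took the class with the most distinct markers, at least 3 and at least 2 more than any other class. Each class had 12 listed markers, of which 11 for myeloid and 10 for B cells were listed for both libraries and used. Of the kept cells 331 in MI and 132 in sham had 2 classes too close, and 221 and 415 were gated on exactly 3 markers. Sub-gates within a class were taken in a fixed order. UMIs were summed per class and library, given as CPM with exact Poisson intervals; ratios have exact conditional binomial and shares Clopper-Pearson 95% intervals, which cover counting error only because UMIs of 1 library are not replicates. A count of 0 was set to 3 counts over the class. Classes needed at least 50 cells and ratios at least 20 UMIs; differences count from 2-fold, with no test. Named genes were the 9 members, per list and per each of the 3 largest classes the 3 genes whose interval lay farthest from 0, and per member with at least 200 gated UMIs the 3 genes of highest r. Not every gene that this rule picks is reported here. Free RNA references (Col1a1, Col1a2, Col3a1, Dcn and Gsn for fibroblasts, 4 endothelial genes) were chosen after seeing the data; Ptprb was dropped from them because MI fibroblasts held it. The members and lists were chosen with earlier results of these data known. Alternatives were a looser and a stricter gate, Leiden clusters (2000 variable genes, 30 principal components, 20 neighbours, resolution 0.8), doublets kept, 10% mitochondrial UMIs, median-of-ratios scaling, mean CPM per cell, thinning to 500 UMIs, barcodes ending in N (317 in MI, 671 in sham) left out, and minimums of 1 and 50 UMIs. The ratio step was tested on simulated data. The tools used were Python 3.11.15 with scipy 1.17.1, numpy 2.4.6, pandas 2.3.3, scanpy 1.11.5, anndata 0.12.19, leidenalg 0.10.2 and matplotlib 3.10.9.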

Additional observations from a re-analysis of the deposited data

Results flagged for a closer look

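For 5 genes the log2 ratio of MI over sham had an interval above 0 in 1 class and below 0 in another, with 1 library per group, so the difference between classes was not tested. Vegfa was at 4.21 in myeloid cells and 1.91 in mesothelial-gated cells, against -0.87 in fibroblasts and -1.14 in endothelial cells. The myeloid value rests on 2 sham UMIs, and the mesothelial one on 3. Vegfb was at 1.11 in endothelial cells against -0.54 in fibroblasts. Pgf was at 1.75 in mural cells, with 6 sham UMIs, against -3.81 in fibroblasts, but the mural value was -0.35 within smooth muscle cells, 0.20 after thinning and 0.92 by clusters. Flt4 was at 1.31 in mesothelial-gated cells, a bound set by 0 sham UMIs, against -0.35 in endothelial cells. Nrp2 was at 0.55 in myeloid cells against -1.37 in endothelial cells.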

How the results depend on the processing

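Over the alternative settings for class, cells and scaling, the 35 ratios of members gave 309 values, of which 271 lay within the main counting interval, 34 outside it and 4 turned sign from a difference of at least 2-fold. The 4 were Pgf in myeloid cells, at -1.71 with doublets kept and -1.0 after thinning, Flt4 in mesothelial-gated cells, at -0.12 after thinning, and Nrp1 there, at 0.054 after thinning. Among the 271, Kdr in mural cells and Flt4 in mesothelial-gated cells could not move as a mean of CPM per cell. That setting took over the main ratio where a library had 0 UMIs. By construction thinning left fewer UMIs. The thinned values of Pgf and Flt4 were bounds and show no turn of direction, since each gene was seen in 4 MI and 0 sham cells of its class. The sham count was then set to 3. Thinning also gave -1.34 for Vegfa in fibroblasts and -1.22 for Flt1 in endothelial cells, and 3 members higher in place of 7. A minimum of 50 UMIs, with fewer pairs tested, left 4 higher. Pgf in fibroblasts was -3.36 by clusters, -3.58 with median-of-ratios scaling and -4.29 in the homeostatic sub-gate alone. Nrp1 in endothelial cells was -0.37 as a mean of CPM per cell. Of alternatives chosen after seeing the data, leaving out the endocardial sub-gate gave -1.61 for Kdr, -0.95 for Flt1 and -1.51 for Nrp1, and leaving out the capillary one -1.85 for Kdr and 0.091 for Nrp1; the smooth muscle sub-gate alone gave -0.35 for Pgf in mural cells; where no cell mixture is named, the cause was not tested. Counts over all genes and classes were 6120 higher and 7910 lower, against 2940 and 4263 after thinning, and 19813 lower with no minimum and 4981 with 50 UMIs. Median-of-ratios scaling takes out the median ratio of all genes, which was -0.23 in fibroblasts and -0.12 in myeloid cells; of the 35 ratios only Vegfb in myeloid cells crossed 0 with that scaling, from -0.06 to 0.058. Clusters gave no mesothelial value, as no MI cell lay in that cluster. Depth limits Vegfb, Vegfc and Flt4, and every class under 120 cells. No paired analysis was possible because each group is 1 library.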

Other observations

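Figf, the gene of VEGF-D, another ligand of VEGFR3, was not among the 9 genes. It was at 35.7 CPM in MI and 25.4 CPM in sham fibroblasts for a log2 ratio of 0.49 (0.15 to 0.85), higher in MI by less than 2-fold, while the VEGFR3 ligand gene Vegfc had an interval that held 0 in the same cells. Ptprb, which encodes a phosphatase of the vessel wall, was counted 1161 times in MI fibroblasts, at 63.4 CPM against 35.7 CPM in sham, while Gpihbp1, an endothelial gene, was at 0.765 and 26.4 CPM. Cells that entered no class (669 in MI and 450 in sham) carried Kdr at 22.8 CPM in MI and 564 in sham, and Pgf at 56.2 and 46.6 CPM.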
